A study of Homo sapiens with 12 samples.

Results

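A group of 10 genes of glycolysis and the hypoxia response were followed in G401 cells, a human malignant rhabdoid tumour line: HIF1A, SLC2A1, HK2, PFKFB3, LDHA, PDK1, CA9, VEGFA, BNIP3 and ADM. The 10 genes were listed by symbol, and each matched 1 of the 57820 gene rows of the deposited tables by its Ensembl identifier. Per the labels, all cells were SMARCB1(-/-), and doxycycline induced GFP as the control protein or SMARCB1, a core subunit of canonical SWI/SNF chromatin remodellers. Both states then received DMSO, the solvent, or dBRD9-A for 24 hours; dBRD9-A is a degrader of BRD9, a subunit of the non-canonical SWI/SNF complex. The 4 groups, written GFP/DMSO, GFP/dBRD9-A, SMARCB1/DMSO and SMARCB1/dBRD9-A, had 3 replicates each, 12 libraries in all. How long doxycycline was given, whether the lines are clones and whether replicates are separate cultures were not given in the sources used here, so p-values measure the spread between these libraries only. The labels name no low-oxygen condition.

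HIF-1 is a transcription factor made of an oxygen-labile alpha subunit, encoded by HIF1A, and a stable partner, ARNT. In normal oxygen the EGLN prolyl hydroxylases mark the alpha subunit for destruction through VHL, so that HIF-1 activity is set largely at the protein level, which RNA counts do not show. When it accumulates, HIF-1 binds DNA at hypoxia response elements and raises genes for glucose uptake, glycolysis, pH control, vessel growth and mitochondrial turnover. Many of these genes are also expressed in normal oxygen in tumour cells, where other factors drive them.

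To show the DNA in front of members that behaved differently, 4 windows are printed, each the 250 bases before a RefSeq gene start (build GRCh38.p14, written 5′ to 3′ on the gene's strand). SLC2A1 was the member called lower in all 4 comparisons, PDK1 had the largest rise with SMARCB1, LDHA was the most abundant member, and CA9 was at or near 0 counts. Capitals mark each match to the core of the hypoxia response element, searched as ACGTG or GCGTG on both strands, so that a match on the opposite strand reads CACGT or CACGC.
SLC2A1, chr1:42958869-42959118, minus strand: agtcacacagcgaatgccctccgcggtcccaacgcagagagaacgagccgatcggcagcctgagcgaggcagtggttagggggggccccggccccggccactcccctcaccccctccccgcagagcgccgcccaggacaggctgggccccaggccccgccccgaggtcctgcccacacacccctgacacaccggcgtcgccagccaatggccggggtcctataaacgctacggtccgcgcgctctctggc
PDK1, chr2:172555840-172556089, plus strand: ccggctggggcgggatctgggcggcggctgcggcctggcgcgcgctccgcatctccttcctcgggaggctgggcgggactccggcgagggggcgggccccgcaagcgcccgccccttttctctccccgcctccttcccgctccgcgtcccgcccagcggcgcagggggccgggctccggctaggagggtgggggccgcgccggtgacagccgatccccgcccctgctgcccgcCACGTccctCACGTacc
LDHA, chr11:18394313-18394562, plus strand: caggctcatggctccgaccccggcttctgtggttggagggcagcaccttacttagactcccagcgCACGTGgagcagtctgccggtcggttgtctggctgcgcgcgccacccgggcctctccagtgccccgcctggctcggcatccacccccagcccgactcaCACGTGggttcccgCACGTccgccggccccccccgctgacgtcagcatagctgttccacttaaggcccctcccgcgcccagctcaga
CA9, chr9:35673678-35673927, plus strand: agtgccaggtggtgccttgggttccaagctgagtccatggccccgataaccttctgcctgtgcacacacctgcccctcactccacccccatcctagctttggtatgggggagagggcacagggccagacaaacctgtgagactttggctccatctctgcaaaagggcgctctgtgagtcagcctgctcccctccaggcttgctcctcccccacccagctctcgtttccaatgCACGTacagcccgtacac

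The SLC2A1 window held no match, CA9 held 1, and the printed windows of PDK1 and LDHA held 2 and 5. PDK1 and LDHA each have a second RefSeq window, with 0 matches and 1 match, and the window with more matches is the one printed; the second PDK1 window is the one directly before the gene start given with its values. The sequence CACGTG reads the same on both strands and counts as 2 matches, and LDHA had it at 2 places. RefSeq windows were found for 9 of the 10 members, 14 windows in all, and VEGFA had no entry. Of the 14 windows, 11 held a match and 7 held ACGTG, where 43.2% of all 35116 RefSeq windows of this length held a match and 18.5% held ACGTG. BNIP3 had 6 matches, as did 1 of the 2 windows of HK2, and with the 5 of LDHA these were the windows with 4 or more, which were found in 3.22% of all RefSeq windows. PDK1, HIF1A, HK2, LDHA and PFKFB3 each had more than 1 annotated start. These matches are a description of letters and say nothing on binding in these cells.

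Libraries held 34.97 to 58.54 megacounts (1e6 counts) assigned to genes. Levels are in counts per 1e6 counts assigned to genes (CPM) on scaled library sizes, and 3 counts, taken as the floor, corresponded to 0.0513 to 0.0858 CPM. SMARCB1 itself was at 0 to 2 counts in the 6 GFP libraries. Its level was 1806, 1911 and 1907 CPM in SMARCB1/DMSO and 1318, 1327 and 1276 CPM in SMARCB1/dBRD9-A, without overlap. Against the floor of 3 counts per library, the rise was at least 25786-fold in DMSO and at least 15431-fold with dBRD9-A. SMARCB1 mRNA was thus lower with dBRD9-A, and whether this bears on the comparisons that use these groups was not tested. BRD9 mRNA did not pass the test for dBRD9-A in GFP cells (log2 fold change 0.10, SE 0.05, adjusted p = 0.146); dBRD9-A acts on the protein, so this level is no check of it. The rhabdoid line's VIM, KRT8 and KRT18 were at 1256 to 2673 CPM. The leucocyte markers PTPRC and CD3E were at 0 and CD14 at 0 to 3 counts. The endothelial CDH5 was at 0 to 10 and VWF at 0 to 50 counts, and PECAM1, also planned, had no row with a matched symbol. The fibroblast DCN was at 0 to 1 count, while the collagens COL1A1 and COL1A2 were at 63.7 to 864 CPM. Mean levels of some of these differed between the groups. From GFP/DMSO to SMARCB1/DMSO, mean VIM went from 1317 to 2309, KRT8 from 2308 to 1896, KRT18 from 2534 to 1691, COL1A1 from 257 to 95.2, VWF from 0.0521 to 0.742 and CDH5 from 0 to 0.146 CPM, and COL1A1 was at 178 CPM in GFP/dBRD9-A cells. Their part in the members' changes was not tested.

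Genes were called by edgeR's quasi-likelihood test where the Benjamini-Hochberg adjusted p, over the 15750 genes tested, was under 0.05. All members but CA9, 9 of the 10, were tested. With SMARCB1 in DMSO, 65.0% of all tested genes were called, 33.5% higher and 31.6% lower. Against this background 7 of the 9 members were called, 4 higher (PDK1, PFKFB3, BNIP3 and HIF1A) and 3 lower (SLC2A1, ADM and VEGFA), with a median log2 fold change of 0.12 against 0.00 over all genes. In these bulk samples fewer cells expressing a gene and less RNA per cell cannot be told apart. The libraries of the 2 groups did not overlap for the same 7 members, and for 68.7% of all genes. With dBRD9-A in GFP cells, 15.9% of all genes were called, 7.43% higher and 8.47% lower, and 2 of the 9 members were called, ADM higher and SLC2A1 lower; the same 2 did not overlap between the groups, against 34.0% of all genes. With dBRD9-A in SMARCB1 cells, 1.93% of genes were called, 0.679% higher and 1.25% lower, and 1 member, SLC2A1, lower.

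**Figure D1:**
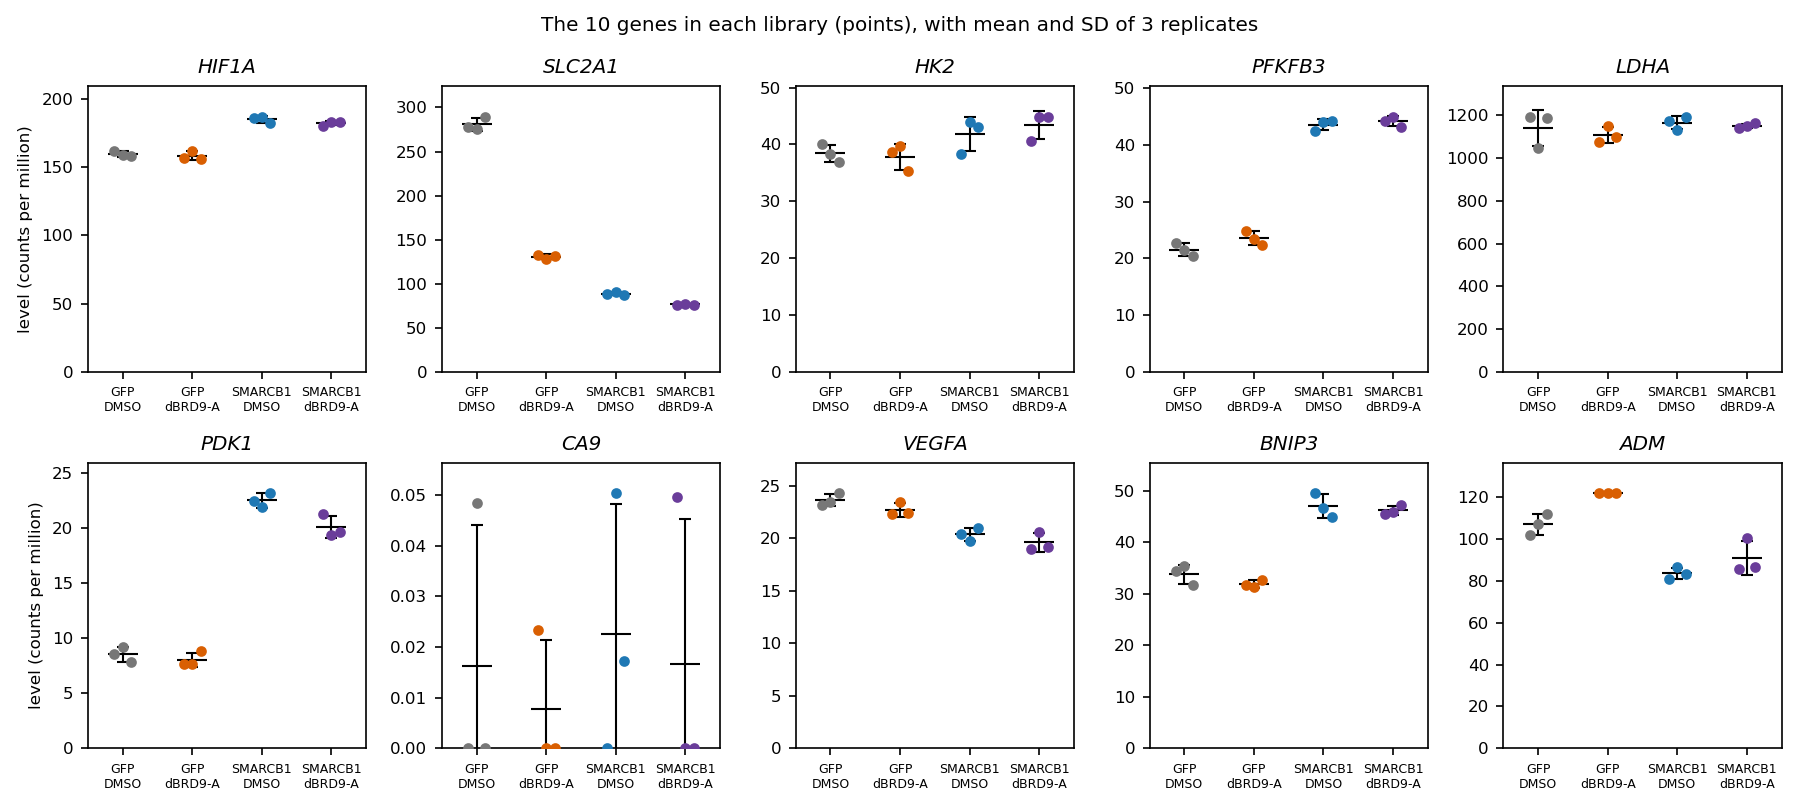
Level of each of the 10 genes in CPM (vertical axis, from 0, on a scale of its own for each gene) in the 12 libraries (points), with the mean and SD of the 3 replicates of each group. SLC2A1 steps down from 281 to 131, 88.6 and 76.5 CPM, PDK1, PFKFB3 and BNIP3 lie higher in both SMARCB1 groups, and CA9 has at most 2 counts in a library.

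SLC2A1 encodes GLUT1, a transporter that brings glucose into the cell with no energy input. It lies at chr1:42925375-42959176 on the minus strand (GENCODE 29, build GRCh38). In GFP/DMSO cells it was at 278, 275 and 289.6 CPM, and with dBRD9-A at 133, 128 and 131 CPM. In SMARCB1 cells it was at 88.2, 90.3 and 87.3 CPM in DMSO and at 76.1, 77.3 and 76.2 CPM with dBRD9-A. The groups stood in the order GFP/DMSO, GFP/dBRD9-A, SMARCB1/DMSO, SMARCB1/dBRD9-A, and no library of one group overlapped with a library of the next.

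SLC2A1 mRNA fell 3.17-fold with SMARCB1 in DMSO, or by -1.67 on the log2 scale (SE 0.03, adjusted p = 1.38e-18), which was a larger absolute change than that of 91.0% of the tested genes. In the presence of dBRD9-A the fall with SMARCB1 was 1.71-fold (log2 -0.77, SE 0.03, adjusted p = 1.03e-13). dBRD9-A lowered SLC2A1 2.15-fold in GFP cells (log2 -1.10, SE 0.03, adjusted p = 2.58e-14), a larger absolute change than that of 98.0% of the tested genes. In SMARCB1 cells dBRD9-A lowered it 1.16-fold (log2 -0.21, SE 0.03, adjusted p = 0.000454). The difference between the responses to dBRD9-A in the SMARCB1 and GFP states was itself tested, as an interaction, and was 0.89 on the log2 scale (SE 0.04, 95% interval 0.81 to 0.98, adjusted p = 5.04e-10). On spike-in scaling, described further on, the difference was 0.39 (adjusted p = 0.000222). By this test 3.80% of all genes were called, 2.15% with a positive and 1.65% with a negative difference, and SLC2A1 was the 1 of the 9 members called. The GFP/DMSO libraries enter both the comparison of SMARCB1 in DMSO and that of dBRD9-A in GFP cells. The annotation puts SLC2A1-AS1 on the other strand, and since use of strand in the counting was not given in the sources used here, its reads cannot be told apart from those of SLC2A1. Genes on the opposite strand were also annotated at the other members except LDHA and ADM, among them HIF1A-AS1 and HIF1A-AS2.

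HK2, hexokinase 2, phosphorylates glucose and so traps it in the cell. HK2 was at 40.0, 38.4 and 37.0 CPM in GFP/DMSO cells and at 38.4, 43.9 and 43.1 CPM in SMARCB1/DMSO cells, and the groups overlapped. The log2 fold change was 0.12 (95% interval 0.01 to 0.24, adjusted p = 0.0594). It passed the threshold on spike-in scaling (0.29, adjusted p = 0.000423), with no filter on low counts (adjusted p = 0.0337), in a fit of only the compared groups (adjusted p = 0.0411), and without replicate 1 of GFP/DMSO, SMARCB1/DMSO or SMARCB1/dBRD9-A (log2 fold changes over the libraries left out ran from 0.09 to 0.18). With dBRD9-A present, HK2 was at 38.6, 39.7 and 35.3 CPM in GFP cells and at 40.6, 44.8 and 44.9 CPM in SMARCB1 cells, without overlap (log2 0.20, SE 0.06, adjusted p = 0.00517), although on spike-in scaling this was -0.13 (adjusted p = 0.0969).

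PFKFB3 makes fructose-2,6-bisphosphate, an activator of phosphofructokinase, and so speeds the committed step of glycolysis. It was at 22.8, 21.5 and 20.4 CPM in GFP/DMSO cells and at 42.5, 44.1 and 44.2 CPM in SMARCB1/DMSO cells. Its rise was 2.02-fold (log2 1.01, SE 0.05, adjusted p = 1.86e-12), with a wide gap between the groups. With dBRD9-A the levels were 24.8, 23.5 and 22.3 CPM in GFP cells and 44.3, 45.0 and 43.2 CPM in SMARCB1 cells (log2 0.91, SE 0.05, adjusted p = 1.28e-11). The change with dBRD9-A in GFP cells was 0.13 (95% interval 0.02 to 0.23, adjusted p = 0.0983).

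LDHA, the lactate dehydrogenase A chain, turns pyruvate into lactate and regenerates NAD+ for glycolysis. It was the most abundant member, at 1194, 1045 and 1189 CPM in GFP/DMSO cells and 1172, 1133 and 1192 CPM in SMARCB1/DMSO cells. The GFP replicates spanned a wider range than the difference between the groups. The log2 fold change was 0.03 (95% interval -0.06 to 0.11, adjusted p = 0.563), but on spike-in scaling it was called higher, at 0.20 (adjusted p = 0.00809). With dBRD9-A LDHA was at 1074, 1149 and 1100 CPM in GFP cells and 1143, 1149 and 1162 CPM in SMARCB1 cells. There the log2 fold change with SMARCB1 was 0.06 (adjusted p = 0.256), but on spike-in scaling it was called lower, at -0.27 (adjusted p = 0.000349). For dBRD9-A the log2 fold changes were -0.04 (95% interval -0.13 to 0.04) in GFP cells and -0.02 (-0.10 to 0.07) in SMARCB1 cells, and neither passed the test.

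PDK1, pyruvate dehydrogenase kinase 1, switches off pyruvate dehydrogenase and so keeps pyruvate out of the citric acid cycle. At chr2:172555373-172608669 on the plus strand, it had 8.57, 9.21 and 7.81 CPM in GFP/DMSO cells and 22.5, 21.9 and 23.2 CPM in SMARCB1/DMSO cells. This was the largest rise among the tested members, 2.66-fold (log2 1.41, SE 0.07, adjusted p = 2.41e-12). With dBRD9-A the GFP libraries were at 7.69, 7.69 and 8.81 CPM and the SMARCB1 libraries at 21.3, 19.4 and 19.7 CPM (2.50-fold, log2 1.32, SE 0.07, adjusted p = 1.44e-11). In SMARCB1 cells the 3 libraries with dBRD9-A all lay below the 3 in DMSO, and 16.9% of all genes did not overlap between these groups. The log2 difference of -0.17 (95% interval -0.29 to -0.04) had an adjusted p of 0.218. On spike-in scaling, which moved the median of all genes by -0.14, it was called at -0.30 (adjusted p = 0.0409).

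**Figure D2:**
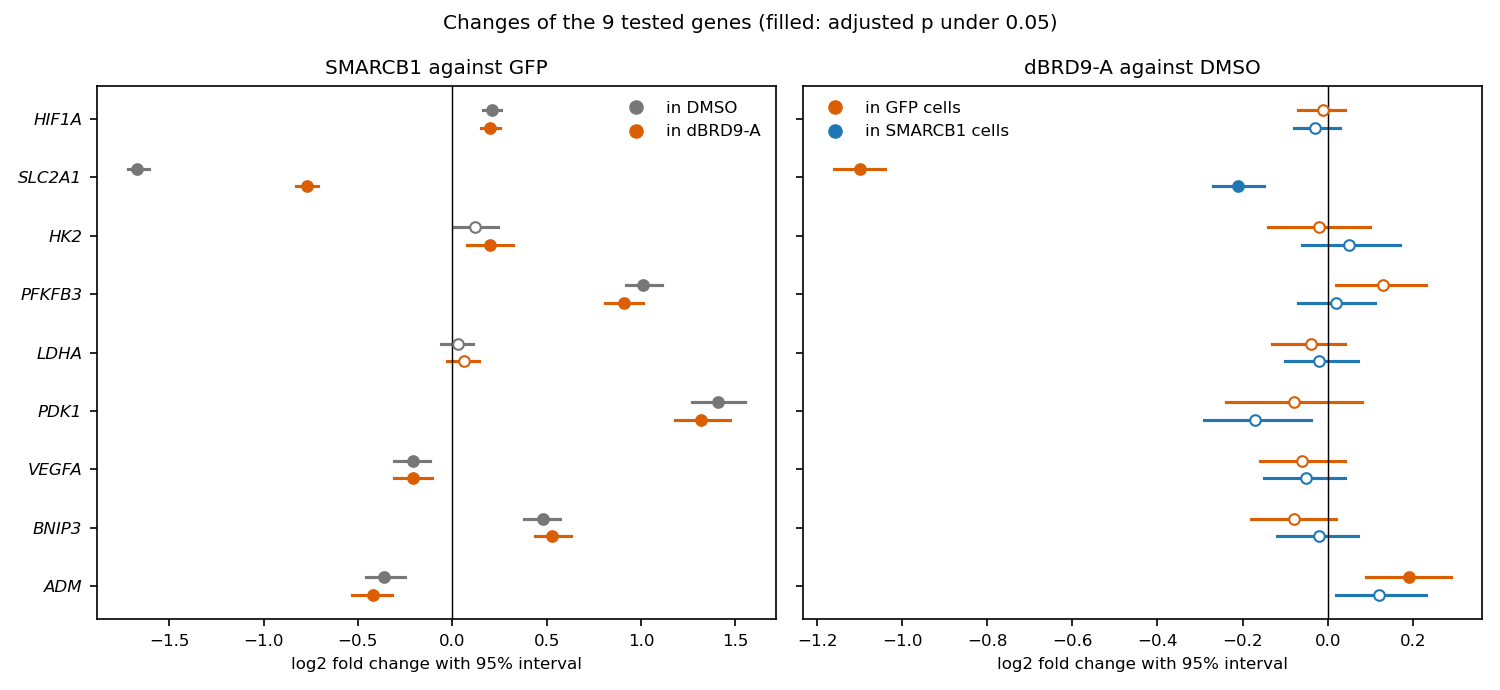
Log2 fold changes of the 9 tested members with 95% intervals (horizontal axis), on the left for SMARCB1 against GFP in DMSO and with dBRD9-A, on the right for dBRD9-A against DMSO in GFP and in SMARCB1 cells. Filled points passed an adjusted p of 0.05. SLC2A1 lies at -1.67 and -0.77 on the left and at -1.10 and -0.21 on the right, while the other members stay within 0.19 of 0 on the right.

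HIF1A, the oxygen-regulated subunit itself, lay at 162, 159 and 158 CPM in GFP/DMSO cells and at 186, 187 and 182 CPM in SMARCB1/DMSO cells. The rise was small next to those of PDK1 and PFKFB3, 1.16-fold (log2 0.21, SE 0.03, adjusted p = 1.13e-06), and 39.9% of tested genes changed by less. With dBRD9-A it was at 157, 162 and 156 CPM in GFP cells and 180.4, 183 and 183 CPM in SMARCB1 cells; the log2 difference of 0.20 (SE 0.03, adjusted p = 2.52e-06) was -0.13 (adjusted p = 0.0676) on spike-in scaling. The response to dBRD9-A was -0.01 (95% interval -0.07 to 0.04) in GFP cells and -0.03 (-0.08 to 0.03) in SMARCB1 cells.

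BNIP3, a mitochondrial protein that marks mitochondria for autophagy, was at 34.3, 35.3 and 31.7 CPM in GFP/DMSO cells and at 49.5, 46.6 and 44.9 CPM in SMARCB1/DMSO cells. It rose 1.39-fold (log2 0.48, SE 0.04, adjusted p = 3.48e-08), and 1.45-fold with dBRD9-A present (log2 0.53, adjusted p = 1.24e-08), where GFP libraries were at 31.7, 31.2 and 32.7 CPM and SMARCB1 libraries at 45.5, 45.9 and 47.1 CPM. Reads of BNIP3 can be shared with its pseudogenes, 42 of which are named in the tables and held up to 11.4% of its count. Added together, BNIP3 and these pseudogenes were at 37.4 ± 2.02 CPM in GFP/DMSO cells and 51.4 ± 2.52 CPM in SMARCB1/DMSO cells (SD, n = 3).

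VEGFA, the ligand that drives vessel growth, was lower with SMARCB1. It was at 23.2, 23.5 and 24.3 CPM in GFP/DMSO cells and at 20.4, 19.7 and 21.0 CPM in SMARCB1/DMSO cells, without overlap (log2 -0.21, SE 0.05, adjusted p = 0.000516), although on spike-in scaling this was -0.04 (adjusted p = 0.655). With dBRD9-A present the levels were 22.3, 23.5 and 22.4 CPM in GFP cells and 19.0, 20.6 and 19.2 CPM in SMARCB1 cells (log2 -0.21, SE 0.05, adjusted p = 0.000883). Changes with dBRD9-A were -0.06 (95% interval -0.16 to 0.04) in GFP cells and -0.05 (-0.15 to 0.04) in SMARCB1 cells.

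ADM encodes adrenomedullin, a secreted peptide that widens vessels. It was at 102, 107 and 112 CPM in GFP/DMSO cells, 122, 122 and 122 CPM in GFP/dBRD9-A cells, 81.0, 86.6 and 83.2 CPM in SMARCB1/DMSO cells and 85.8, 100.4 and 86.7 CPM in SMARCB1/dBRD9-A cells. SMARCB1 lowered it in DMSO (log2 -0.36, SE 0.05, adjusted p = 5.05e-06) and with dBRD9-A (log2 -0.42, SE 0.05, adjusted p = 6.57e-07). dBRD9-A raised it in GFP cells (log2 0.19, SE 0.05, adjusted p = 0.0109), a call lost without replicate 1 of GFP/DMSO (log2 0.16, adjusted p = 0.0665). ADM was thus called lower for SMARCB1 and higher for dBRD9-A, where SLC2A1 was called lower for both. In SMARCB1 cells the change with dBRD9-A was 0.12 (95% interval 0.02 to 0.23, adjusted p = 0.277), the groups overlapped, and the interaction was -0.07 (95% interval -0.21 to 0.08).

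CA9, carbonic anhydrase 9, controls pH outside the cell and is a widely used marker of hypoxic tumour tissue. It lies at chr9:35673856-35681159 on the plus strand and had 0 to 2 counts in each of the 12 libraries, at or under the floor of 3 counts, so no fold is given. Its relative CA12, carbonic anhydrase 12, was well expressed, at 64.5 ± 0.878 CPM in GFP/DMSO cells and 114 ± 3.54 CPM in SMARCB1/DMSO cells (SD, n = 3; log2 0.83, adjusted p = 7.15e-14).

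Set per kilobase of the principal transcript, the members' levels in GFP/DMSO cells ran from LDHA at 595 CPM per kb through SLC2A1 at 76.5, ADM at 56.8 and HIF1A at 40.8 down to PDK1 at 0.993 and CA9 at 0.00998 CPM per kb. The order of the first 4 was the same per kilobase of all merged exons, at 184, 59.4, 39.4 and 31.0 CPM per kb. In SMARCB1/DMSO cells, SLC2A1 had 24.1 CPM per kb of principal transcript, below ADM at 44.4 and HIF1A at 47.2 CPM per kb. VEGFA is not placed, because its value changed from 19.7 to 1.64 CPM per kb with the length used.

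The effect of SMARCB1 was measured in 2 comparisons without a shared library, in DMSO and with dBRD9-A. With dBRD9-A present 63.3% of all genes were called, 33.0% higher and 30.4% lower, and 8 of the 9 members, the 7 called in DMSO and HK2. Of these 8, 5 were higher and 3 lower, and all 8 did not overlap between the groups, against 66.2% of all genes. All 7 called in both had the same sign, as did all genes called in both in each of the other pathway lists described further on. The share with the same sign over all genes was not counted. Values were close to each other for HIF1A (0.21 and 0.20), BNIP3 (0.48 and 0.53), PDK1 (1.41 and 1.32), PFKFB3 (1.01 and 0.91), VEGFA (-0.21 and -0.21) and ADM (-0.36 and -0.42). Their interaction terms ran from -0.11 to 0.06 and did not pass the test. On spike-in scaling these terms were all called, from -0.60 for PFKFB3 to -0.44 for BNIP3. On that scale 71.6% of all genes were called, and the median of all genes was -0.49. For SLC2A1 the values were -1.67 and -0.77, and their difference is the interaction of 0.89 given above.

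All of these changes are relative to the bulk of the genes. The tables also hold 40 synthetic spike-in RNAs, which made up 1.26% to 1.3% of counts in GFP/DMSO, 0.963% to 1.06% in GFP/dBRD9-A, 1.08% to 1.21% in SMARCB1/DMSO and 1.18% to 1.3% in SMARCB1/dBRD9-A cells. Their share was thus lower with dBRD9-A in GFP cells, while in SMARCB1 cells the ranges overlapped. Scaling libraries to the spike-ins moved the median of all genes by 0.17 for SMARCB1 in DMSO, -0.32 for SMARCB1 with dBRD9-A, 0.36 for dBRD9-A in GFP cells, -0.14 for dBRD9-A in SMARCB1 cells and -0.49 for the interaction. On that scale SLC2A1 was still called with the same sign in all 5, at -1.50, -1.10, -0.74, -0.35 and 0.39. The other 8 tested members were all called higher with dBRD9-A in GFP cells, where the median gene rose by the 0.36 above. How the spike-ins were added is not given in the sources used here, and which scale holds per cell was not tested.

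Genes around the members were taken from lists of the same pathway. Of 15 other glycolytic enzymes, all tested, 9 were called with SMARCB1 in DMSO, 4 higher and 5 lower, with a median of 0.01. This is 60.0% of the list, against 65.0% of all genes (33.5% higher and 31.6% lower). HK1, the broadly expressed hexokinase, rose from 44.6 ± 0.303 to 112 ± 1.90 CPM (SD, n = 3; log2 1.32, adjusted p = 2.09e-16). PKM, pyruvate kinase, rose by 0.32, while PFKM, the muscle type of phosphofructokinase, fell by 0.53 and LDHB, the partner chain of LDHA, fell by 0.32 on the log2 scale. With dBRD9-A present, 9 were again called, 5 higher and 4 lower, or 60.0% against 63.3% of all genes (33.0% higher and 30.4% lower). ALDOC, the brain type of aldolase, had the largest fall of the list there, at -0.82 (adjusted p = 0.000826), and was at -0.64 in DMSO. In GFP cells 3 of the 15 were called with dBRD9-A, where 15.9% of all genes were called. These were PFKL (-0.12), ALDOA (-0.09) and GAPDH (-0.08), all of which turned positive on spike-in scaling (0.24, 0.27 and 0.28) and lost their calls in 4, 4 and 5 of the 12 fits that left out 1 library.

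Of 12 genes of glucose, lactate and pyruvate transport and of pyruvate entry to mitochondria 11 were tested, PDK4 being at 0 in each library. With SMARCB1 in DMSO 9 were called, 6 higher and 3 lower, or 81.8% against 65.0% of all genes. With dBRD9-A present 7 were called with SMARCB1, 5 higher and 2 lower, or 63.6% against 63.3% of all genes. The values below are for SMARCB1 in DMSO unless dBRD9-A is named. SLC2A3, the glucose transporter GLUT3, went the other way from SLC2A1, from 62.6 ± 0.980 CPM in GFP/DMSO to 535 ± 4.79 CPM in SMARCB1/DMSO cells (SD, n = 3; log2 3.10, SE 0.03, adjusted p = 1.25e-21). Per kilobase of principal transcript, SLC2A3 stood at 16.0 CPM per kb against 76.5 for SLC2A1 in GFP/DMSO cells, and at 137 against 24.1 CPM per kb in SMARCB1/DMSO cells, so that the order of the 2 transporters was reversed. With merged exon lengths the values were 10.2 against 59.4 and 86.9 against 18.7 CPM per kb. Its near copy SLC2A14, with which it can share reads, was at 0.467 and 4.09 CPM in the same groups. With dBRD9-A in GFP cells SLC2A3 was 0.24 higher (adjusted p = 4.34e-05), again opposite in sign to SLC2A1. PDP1, the phosphatase that switches pyruvate dehydrogenase back on and so opposes PDK1, rose from 1.52 ± 0.153 to 27.5 ± 0.263 CPM (log2 4.16, adjusted p = 2.63e-17), and the related PDP2 fell by 0.89. MPC1, a subunit of the carrier that brings pyruvate into mitochondria, fell from 70.7 ± 4.12 to 20.5 ± 0.474 CPM (log2 -1.79, adjusted p = 4.10e-16). SLC16A3, the lactate exporter MCT4, rose by 0.63. The other PDK1 relatives moved little, PDK2 by 0.16 (adjusted p = 0.00857) and PDK3 by -0.09 (adjusted p = 0.172).

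Of the other fructose-2,6-bisphosphate enzymes, PFKFB2 fell from 84.3 ± 0.565 to 35.6 ± 0.506 CPM with SMARCB1 in DMSO (log2 -1.25, adjusted p = 2.37e-16), where PFKFB3 had risen. PFKFB4 was also lower (log2 -0.33, adjusted p = 0.00710; -0.15 and adjusted p = 0.233 on spike-in scaling). TIGAR, which breaks down the same metabolite, was 0.11 higher (adjusted p = 0.0183), a call lost without replicate 1 of GFP/DMSO or replicate 2 of SMARCB1/DMSO, with an adjusted p of up to 0.0880.

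**Figure D3:**
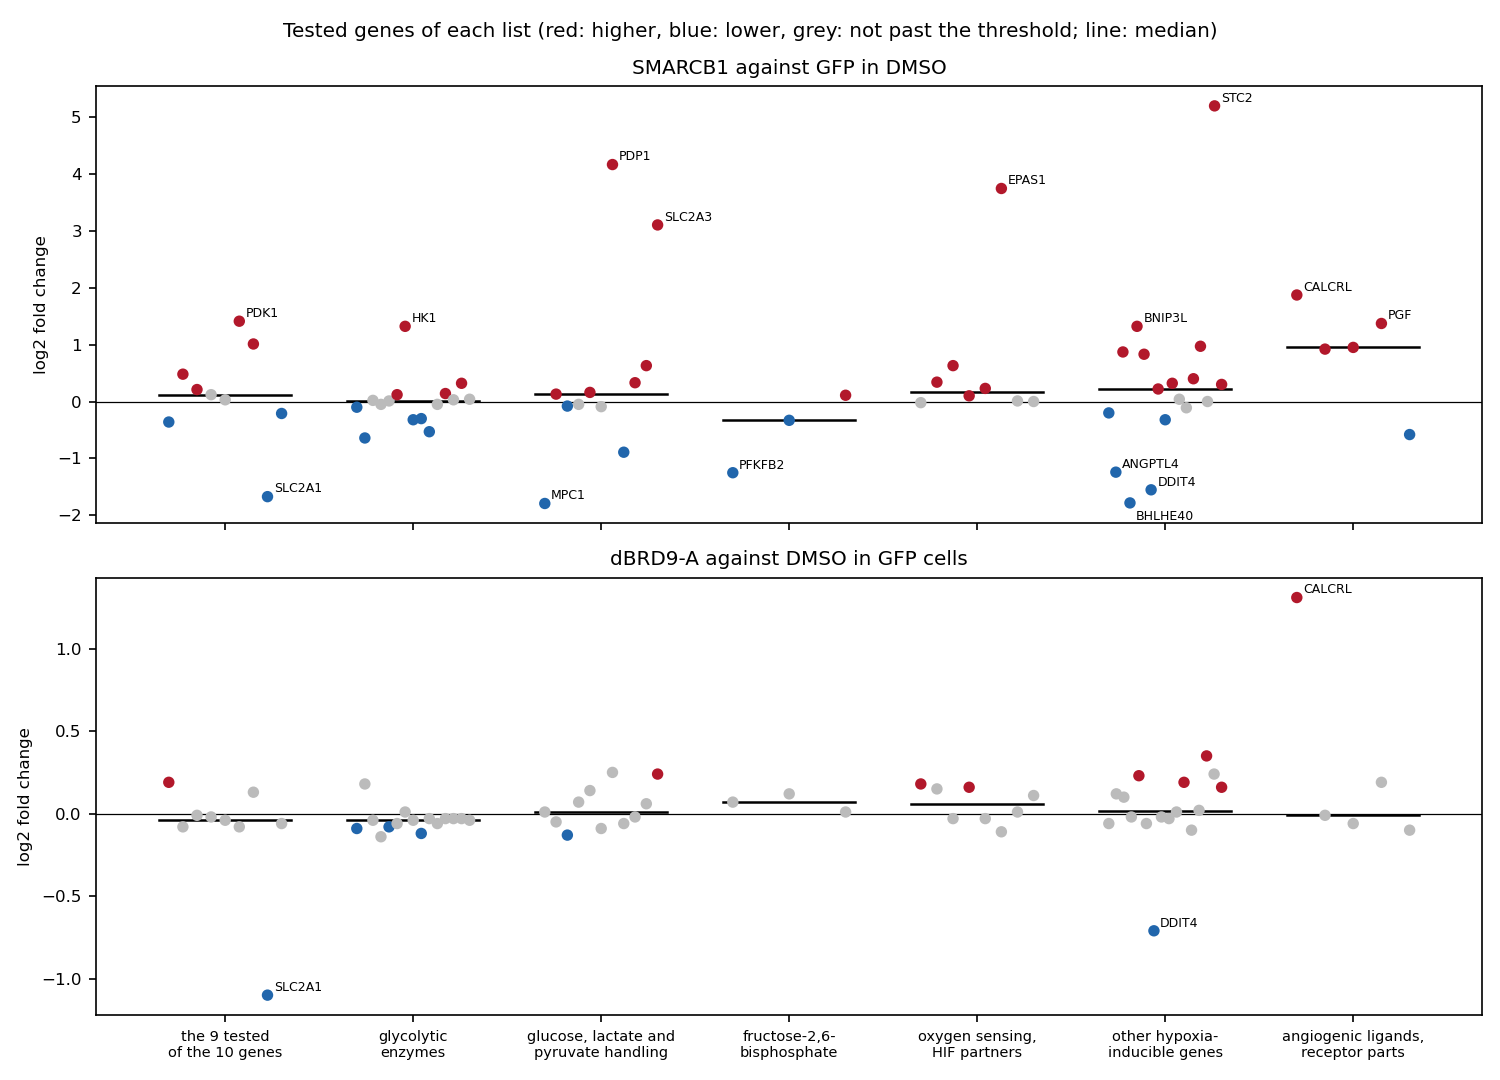
Log2 fold changes (vertical axis) of the tested genes of each pathway list, for SMARCB1 against GFP in DMSO (top) and dBRD9-A against DMSO in GFP cells (bottom), on axes of different range. Each point is a gene, red higher, blue lower and grey not called, the line is the median of the points drawn, and genes with at most 3 counts in each library of a compared group (VLDLR, FLT1 and, below, STC2) are left out. SLC2A1 at -1.10 and CALCRL at 1.31 lie at the ends of the lower panel.

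Of 11 oxygen-sensing and HIF partner genes 8 were tested, and with SMARCB1 in DMSO 5 were called, all higher, or 62.5% against 65.0% of all genes. With dBRD9-A present 5 were also called with SMARCB1, 3 higher and 2 lower, against 63.3% of all genes. The 2 lower were VHL, which recognises hydroxylated HIF alpha subunits (-0.20, adjusted p = 0.00257), and ARNT (-0.11, adjusted p = 0.0127), the latter losing its call without replicate 3 of SMARCB1/dBRD9-A (adjusted p = 0.0537). EPAS1, which encodes the HIF-2 alpha subunit, was at 4 to 10 counts in GFP/DMSO libraries and rose from 0.155 to 2.03 CPM with SMARCB1 in DMSO (log2 3.74, adjusted p = 4.99e-09). EGLN1, the main prolyl hydroxylase acting on HIF alpha subunits, rose from 66.5 ± 1.45 to 103 ± 3.52 CPM (SD, n = 3; log2 0.63, adjusted p = 8.35e-12). EGLN2, another prolyl hydroxylase, was 0.10 higher (adjusted p = 0.0472), a call lost in 8 of the 12 fits that left out 1 library. EGLN3 was at 0 to 4 counts in each library. CREBBP and EP300, coactivators of HIF, were 0.34 and 0.23 higher, EP300 losing its call without replicate 3 of SMARCB1/DMSO (adjusted p = 0.0566). ARNT gave -0.02 (adjusted p = 0.700) with SMARCB1 in DMSO and rose by 0.18 with dBRD9-A in GFP cells (adjusted p = 0.00280).

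Of 21 other hypoxia-inducible genes 18 were tested, and 15 were called with SMARCB1 in DMSO, 10 higher and 5 lower, with a median of 0.26. The share called was 83.3%, against 65.0% of all genes, which split into 33.5% higher and 31.6% lower. VLDLR, a lipoprotein receptor, had 1 count in each GFP/DMSO library and 4.53 CPM in SMARCB1/DMSO cells, at least 62.3-fold higher against the floor of 3 counts per library. STC2, a secreted glycoprotein, went from 3 to 6 counts in the GFP/DMSO libraries to 3.15 ± 0.273 CPM in SMARCB1/DMSO cells (log2 5.19, adjusted p = 6.80e-12). BNIP3L, the close relative of BNIP3, rose from 45.7 ± 1.44 to 114 ± 3.69 CPM (log2 1.32, adjusted p = 5.36e-15). Lower were BHLHE40, a transcriptional repressor (-1.78), DDIT4, an inhibitor of mTORC1 (-1.55), and ANGPTL4, an inhibitor of lipoprotein lipase (-1.24).

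In GFP cells, 5 of these 18 were called with dBRD9-A, 4 higher and 1 lower, or 27.8% against 15.9% of all genes (7.43% higher and 8.47% lower). The one that fell was DDIT4, from 123 ± 6.15 to 74.8 ± 2.47 CPM (log2 -0.71, SE 0.04, adjusted p = 9.66e-10). Like SLC2A1, DDIT4 was also lower with SMARCB1 in DMSO and had an interaction called positive, at 0.43, but on spike-in scaling this was -0.07 (adjusted p = 0.564), where that of SLC2A1 was 0.39. The largest of the 4 rises was P4HA2, a collagen prolyl hydroxylase, at 0.35 (adjusted p = 0.000124). The others were BNIP3L (0.23) and, each losing its call in 4 of the 12 fits that left out 1 library, KDM3A, a histone demethylase (0.19), and WSB1 (0.16).

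**Figure D4:**
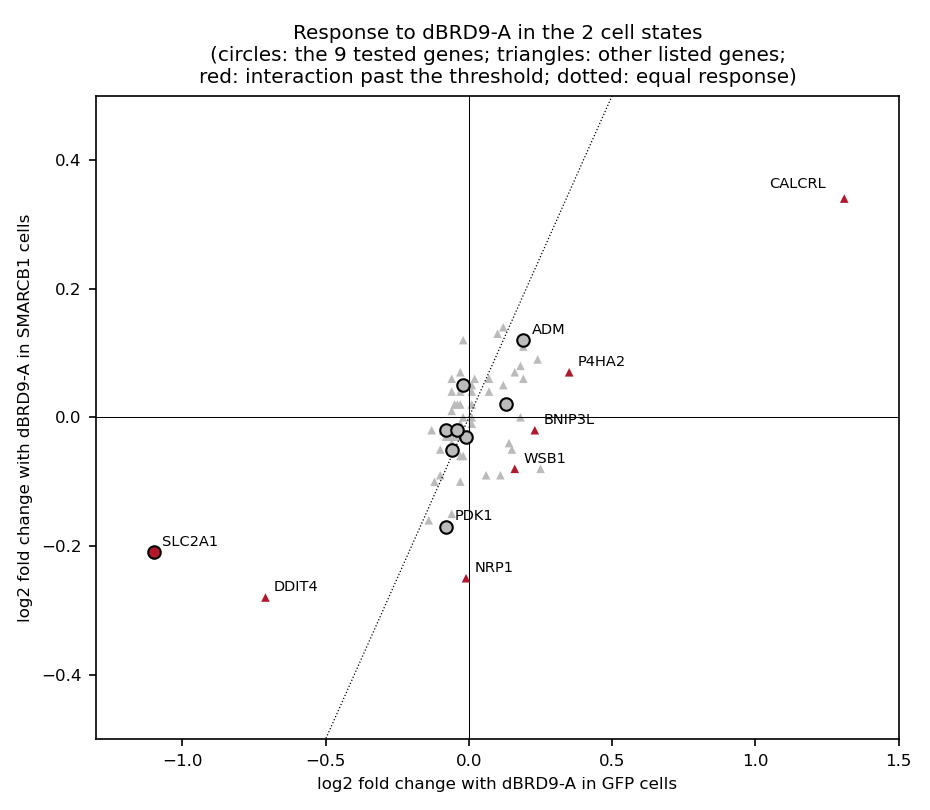
Log2 fold change with dBRD9-A in SMARCB1 cells (vertical axis) against that in GFP cells (horizontal axis, on a wider scale) for the 9 tested members (circles) and 56 other listed genes with a mean of at least 50 counts and above 3 counts in some library of each group (triangles). Red points have a called interaction, the dotted line marks equal responses, and SLC2A1 lies at -1.10 and -0.21, the farthest of the members from 0.

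Among 12 angiogenic ligands and receptor parts 6 were tested, and with SMARCB1 in DMSO all 6 were called, 5 higher and 1 lower, where 65.0% of all genes were called. PGF, a VEGF relative, rose from 3.86 ± 0.493 to 9.87 ± 0.386 CPM (SD, n = 3; log2 1.37, adjusted p = 4.28e-09) and PDGFB, a platelet-derived growth factor chain, by 0.95, while VEGFB, another VEGF relative, fell by 0.58, as VEGFA had fallen by 0.21. FLT1, a VEGF receptor, was at least 4.86-fold higher against the floor. VEGFC was at 0 to 2 counts. CALCRL, the core of the adrenomedullin receptor, rose with SMARCB1 (log2 1.87, adjusted p = 1.13e-07) and with dBRD9-A in GFP cells, from 0.548 ± 0.120 to 1.38 ± 0.146 CPM (log2 1.31, SE 0.20, adjusted p = 0.000230). The receptor partners RAMP1, RAMP2 and RAMP3 had too few counts to be tested.

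The 3 genes whose log2 CPM over the 12 libraries was most like that of HIF1A, among 12584 genes with a mean of at least 50 counts, were a gene with no matched symbol (Pearson r = 0.993), AOPEP (0.992) and ACP5 (0.992). A total of 1502 genes had an r above 0.95 with HIF1A. For VEGFA they were PNMA1 (0.979), CBS (0.974) and COL26A1 (0.965), and 35 genes were above 0.95. The points share the libraries and the split between GFP and SMARCB1 cells, which sets most of each value, so these are descriptions without a test.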

How the data were processed

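RNA from 12 libraries of G401 cells was sequenced after an RNeasy Plus extraction and TruSeq Stranded mRNA preparation, per the labels' protocols. The authors deposited expected counts per gene, in 3 tables of 2 groups each, and per the submitters' processing notes the tools were STAR, RSEM 1.3.1 and DESeq2 and the build GRCh37/hg19; the annotation and the use of strand are not given in the sources used here. Of the 12 libraries 6 are held in a second table with identical values, and each was used once. Of the deposited values 2.57% were not whole; expected counts were rounded. Neither library sizes nor tests used the ERCC rows. Replicates differed by more than sampling noise in each pair, so each counted as 1 sample.

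Counts were tested in R 4.3.3 with edgeR 4.0.16: filterByExpr with a minimum count of 10 (15750 genes), TMM scaling, and quasi-likelihood fitting of the 4 group means over all 12 libraries. Benjamini-Hochberg adjustment ran over all genes, with a threshold of 0.05. The fitting code was tested on simulated data with few changed genes, as many higher as lower. That setting differs from these data and cannot bear on the choice of scaling. Folds against a group with each library at or under 3 counts are lower bounds, and floors cover counting error only. Symbols were matched for 51996 of the 57820 identifiers. Positions and lengths came from GENCODE 29 (GRCh38), another build than that of the counts, matched by identifier; promoter windows came from RefSeq (GRCh38.p14).

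The members and lists were chosen with earlier results of these data known. Genes were named from among the members, their close relatives and, from each list and comparison, up to 3 largest rises and 3 largest falls among called genes with a mean of at least 50 counts and no overlap between the compared libraries. FLT1, SLC2A14 and the RAMP genes were named after their values were seen. One gene was left out of the lists and their counts and is not reported here. Alternatives were DESeq2 1.42.0, its size factors in edgeR, spike-in scaling, no filter, a minimum count of 50, only the compared groups, a replicate block, a log2 limit of 1, and each library left out.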

Additional observations from a re-analysis of the deposited data

Results flagged for a closer look

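Among the members, SLC2A1 differed between the cell states in its response to dBRD9-A, with a difference of 0.89 on the log2 scale by the interaction test. It was called in each of the 12 fits that left out 1 library, with values from 0.86 to 0.91, and on spike-in scaling it was 0.39. Mean SMARCB1 mRNA was 1875 CPM in SMARCB1/DMSO and 1307 CPM in SMARCB1/dBRD9-A cells, and its part in the SLC2A1 difference was not tested.

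Another 6 listed genes differed in this way, 4 of the 18 tested other hypoxia-inducible genes and 2 of the 6 tested angiogenic ligands and receptor parts. None of the 15, 11, 3 and 8 tested genes of the remaining lists was called. Over all genes the share called was 3.80%. DDIT4 (0.43) fell less with dBRD9-A in SMARCB1 cells than in GFP cells, and the call was lost on spike-in scaling (-0.07), which moved the median of all genes by -0.49. BNIP3L (-0.25), P4HA2 (-0.28), WSB1 (-0.24) and CALCRL (-0.97) had a called rise with dBRD9-A in GFP cells and none called in SMARCB1 cells. Leaving out 1 library ended the call of BNIP3L in 2 of the 12 fits (without replicate 1 of GFP/DMSO or replicate 3 of GFP/dBRD9-A, adjusted p of up to 0.0516), of WSB1 in 6 (up to 0.102), of P4HA2 in 7 (up to 0.0902) and of CALCRL in 9 (up to 0.131). NRP1, a coreceptor for VEGFA, had a difference of -0.24, from -0.01 in GFP cells (adjusted p = 0.900) and -0.25 in SMARCB1 cells (adjusted p = 0.000845).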

How the results depend on the processing

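DESeq2's size factors, its Wald test and a minimum count of 50 left the number of called members at 7, 8, 2, 1 and 1, in the order SMARCB1 in DMSO, SMARCB1 with dBRD9-A, dBRD9-A in GFP cells, dBRD9-A in SMARCB1 cells, interaction. With SMARCB1 in DMSO, spike-in scaling gave 8 members, 6 higher and 2 lower, against 4 higher and 3 lower in the main fit. With SMARCB1 in the presence of dBRD9-A it gave 7, 3 higher and 4 lower, against 5 higher and 3 lower. Spike-in scaling gave 9 members and 11310 genes with dBRD9-A in GFP cells, 2 and 873 in SMARCB1 cells, and 9 and 11270 for the interaction, against 2504, 304 and 598 genes. It turned the sign of PDHA1 with SMARCB1 in DMSO (0.09); of HIF1A (-0.13), HK2 (-0.13), LDHA (-0.27), PKM (-0.07), PGAM1 (-0.12), TIGAR (-0.18) and EP300 (-0.13) with SMARCB1 in the presence of dBRD9-A; of HIF1A (0.34), HK2 (0.33), LDHA (0.32), PDK1 (0.28), VEGFA (0.30), BNIP3 (0.28), PFKL (0.24), ALDOA (0.27), GAPDH (0.28) and PDHA1 (0.23) with dBRD9-A in GFP cells; and of HK2 (-0.42), LDHA (-0.47), VEGFA (-0.50), BNIP3 (-0.44) and DDIT4 (-0.07) in the interaction. These turns follow the shift of the median gene that this scaling makes. The share of higher among all called genes went with it from 51.4% to 72.6%, 52.0% to 19.1%, 46.7% to 98.0%, 35.2% to 4.47% and 56.5% to 0.586%, in the same order. A log2 limit of 1 left 3, 1, 1, 0 and 0 members and 2305, 2300, 143, 23 and 42 genes by construction. For dBRD9-A in SMARCB1 cells, no filter gave 2 members, ADM being added (0.13, adjusted p = 0.0262), and 652 genes. A fit of only these groups gave 159 genes, and leaving out 1 library gave 169 to 422 genes, the cause of which was not tested. The lowest came without replicates 2 (174) and 3 (169) of SMARCB1/DMSO and replicate 3 of SMARCB1/dBRD9-A (195). The highest, 422, came without replicate 2 of SMARCB1/dBRD9-A, where the interaction had 862 genes against 598. Pairs of that replicate with replicates 1 and 3 of its group had the largest scatter, at 10.7 and 25.3 chi-square per degree of freedom. Leaving out 1 library gave 7 to 8 members with SMARCB1 in DMSO and 2 to 3 with dBRD9-A in GFP cells, where PFKFB3 was called without replicate 1 of GFP/DMSO (0.17, adjusted p = 0.0434) and LDHA without replicate 2 (-0.11, adjusted p = 0.0316). Where a group is left with 2 libraries, the pooled spread is assumed to hold for it.

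Replicate numbers in the titles were not found to pair libraries: deviations from the group means correlated by -0.05 to 0.08 over the 18 same-numbered pairs. The replicate block gave 10113, 9812, 2233, 254 and 529 called genes and kept the counts of called members at 7, 8, 2, 1 and 1.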
